A study of Mus musculus with 6 samples.

Results

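Transcripts of 10 genes of the JAK-STAT pathway, of 14125 genes in the matrix, were examined cell by cell in 2 lymph nodes of pregnant mice. The genes were taken by name from a fixed list of 2 Janus kinases (Jak1 and Jak3), 5 signal transducers and activators of transcription (Stat3, Stat4, Stat5a, Stat5b and Stat6) and 3 members of the suppressor of cytokine signalling family (Socs1, Socs3 and Cish). All 10 were found in the matrix. The cells came from the uterine-draining node (udLN) and the brachial node (brLN) of 7 dams mated to BALB/c males and killed at embryonic day 9.5. In 4 Aire-DTR dams the diphtheria toxin receptor was expressed under Aire, so that toxin removes cells that express Aire, and 3 WT dams lacked the receptor. Both genotypes were given diphtheria toxin over the first 9 days of pregnancy, so the contrast is of the transgene and not of the toxin. Among the Aire-DTR dams, mouse 4 carried the label resorbed and mice 7, 8 and 36 the label IUGR. Mice were hashtagged and loaded as pool 1 (mice 6 and 8), pool 2 (mice 36 and 97) and pool LN (mice 1, 4 and 7), and uterine cells of pools 1 and 2 were not analysed here.

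Cytokine receptors without catalytic activity of their own rely on Janus kinases bound to their tails. Once a cytokine joins the receptor chains, the kinases phosphorylate the receptor and then STAT proteins, which pair, enter the nucleus and bind DNA. Genes of the SOCS family are among the targets, and their proteins damp the same receptors, so their transcripts are widely read as a record of recent cytokine signalling. In lymph nodes the pathway carries the signals of the common gamma chain cytokines that maintain T cells and regulatory T cells (Treg), and those that direct helper T cell fates.

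The matrix held unique molecular identifier (UMI) counts, and 2127 cells of the first well of pool LN stood in it a second time with identical counts and labels. These were counted once, which left 7300 of 9427 cells and 22833288 UMIs, and 208 barcode sequences still occurred in more than 1 well. Each mouse and node gave 48 to 1060 cells and 155098 to 3351478 UMIs, and the median cell held 2910 UMIs. Cell types and CD4 subsets are those the authors deposited. They were named from expression in the same cells, so contrasts between types describe how the named classes differ and are not independent tests. Socs1, Socs3 and Cish were among the 1212 genes of the deposited scaled table of all cells, these 3 and Stat4 were among the 2411 of the CD4 table, and the other members were in neither. Marker genes fitted most names. Foxp3 was at 455 CPM (UMIs of the gene as parts of 1e6 UMIs of the class) in CD4+ Treg against 5.16 in CD4+ Naive T, Cd79a at 4711 in B, Ncr1 at 881 in NK and Trdc at 567 in gdT. Myeloid cells carried S100a8 at 17402 CPM together with the globin Hbb-bs at 55164, and Early Act. CD4 cells carried Cd8b1 at 425 CPM beside Cd4 at 160. Il17a, the defining cytokine of Th17 cells, was not among the genes analysed.

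The promoters of the 3 SOCS family genes are shown because the family is a known target of STAT proteins. Each sequence is the RefSeq window (GRCm38.p6) from 250 bases before to 50 bases after the annotated start, read on the gene's strand, with every match to the palindrome TTCNNNGAA in capitals. That motif is the core sequence many STAT dimers bind, and as a palindrome it reads the same on both strands. The windows are chr9:107296409-107296708 (plus strand) for Cish, chr11:117969317-117969616 (minus strand) for Socs3 and chr16:10785487-10785786 (minus strand) for Socs1.
Cish: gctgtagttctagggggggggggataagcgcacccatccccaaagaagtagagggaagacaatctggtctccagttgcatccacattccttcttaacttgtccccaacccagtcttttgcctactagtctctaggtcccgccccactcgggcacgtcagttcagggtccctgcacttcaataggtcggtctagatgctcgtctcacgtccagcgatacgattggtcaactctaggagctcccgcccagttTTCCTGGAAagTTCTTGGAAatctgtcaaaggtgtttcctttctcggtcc
Socs3: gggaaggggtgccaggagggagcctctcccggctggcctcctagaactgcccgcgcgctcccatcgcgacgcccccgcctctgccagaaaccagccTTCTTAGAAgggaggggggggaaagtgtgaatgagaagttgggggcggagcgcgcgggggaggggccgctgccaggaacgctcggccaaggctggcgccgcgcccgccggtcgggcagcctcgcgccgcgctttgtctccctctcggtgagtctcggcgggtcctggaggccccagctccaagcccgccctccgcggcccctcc
Socs1: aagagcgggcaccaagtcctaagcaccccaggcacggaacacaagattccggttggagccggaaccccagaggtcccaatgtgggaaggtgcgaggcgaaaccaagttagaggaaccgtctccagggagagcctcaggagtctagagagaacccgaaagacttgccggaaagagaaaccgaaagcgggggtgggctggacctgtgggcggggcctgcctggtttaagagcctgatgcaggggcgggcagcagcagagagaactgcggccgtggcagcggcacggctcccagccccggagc
The Cish window held 2 matches, TTCCTGGAA at the start site and TTCTTGGAA 11 bases past it. The Socs3 window held 1, TTCTTAGAA at position -154, and the Socs1 window and the windows of the other 7 members held 0. Of 32851 RefSeq mouse windows of this length, 8.3% held at least 1 match and 0.457% at least 2. A match is a stretch of letters and not a measured site, and no binding data were used.

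Cish, whose protein restrains receptors that signal through STAT5, was the member with the largest differences. Levels are given as CPM of the UMIs of a class in a mouse, for classes with at least 10 cells in that mouse. In CD4+ Naive T the level was 8.18 CPM in the lowest mouse, 13.1 in the median mouse and 17.5 in the highest (13.1 ± 3.47, mean ± SD, n = 7). In CD4+ Treg it was 99.7, 198 and 265 CPM (178 ± 62.7, n = 7). Every mouse was higher in CD4+ Treg, and the ranges did not overlap. By the quasi-likelihood test of edgeR, adjusted by Benjamini-Hochberg over 7955 genes, Cish was 10.8-fold higher in CD4+ Treg (log2 difference 3.43 ± 0.25 SE, adjusted p = 6.62e-21). In CD4+ Treg 2 of 10 members rose and none fell, beside 9.44% of all genes tested that were called (4.66% higher and 4.78% lower).

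CD4+ Mem T lay between the naive and the regulatory cells for Cish. The lowest, median and highest mouse had 28.8, 73 and 102 CPM (66.2 ± 30.8, n = 7), above the naive level in 7 of 7 mice with no overlap. The difference was 4.22-fold (log2 2.08 ± 0.26 SE, adjusted p = 1.42e-10, edgeR). In this contrast 4 of 10 members were called, 2 higher and 2 lower, against 17.2% of all genes (9.18% higher and 8.05% lower).

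The subset labels show which CD4 cells held these transcripts. Of 125 Cish UMIs in CD4+ Mem T, 45.6% were in cells with the subset label Act. Treg, which were 21.95% of the cells, and 31.2% were in Th17, which were 19.1%. Tfh were 23.8% of those cells and held 4.8% of the UMIs. Of 142 Cish UMIs in CD4+ Treg, 86.6% were in Resting Treg, which were 78.4% of the cells, and 13.4% were in Act. Treg, which were 11.6%. By level, Resting Treg had 125, 155 and 255 CPM in the lowest, median and highest mouse (180 ± 52.2, n = 7) and Act. Treg had 51.1, 170 and 204 CPM (158 ± 56.9, n = 6). In Th17 the values were 22.2, 72.2, 201 and 44.9 CPM in mice 1, 4, 7 and 36. In Tfh they were 0, 17.9, 15.9, 0 and 7.51 CPM in mice 1, 4, 7, 8 and 36. The regulatory and Th17 subsets were thus above the naive range in every mouse, and Tfh straddled it.

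Against CD4+ Naive T, Cish was higher in Resting Treg (12.2-fold, log2 3.61 ± 0.28 SE, adjusted p = 4.61e-15), in Act. Treg (9.01-fold, log2 3.17 ± 0.33 SE, adjusted p = 1.6e-11) and in Th17 (5.37-fold, log2 2.43 ± 0.47 SE, adjusted p = 5.47e-05), all by edgeR over 2342 genes. Act. Treg and Resting Treg differed by -0.44 ± 0.29 SE on the log2 scale, which did not pass the test (adjusted p = 0.34, edgeR). Tfh and CD4+ Naive T differed by -0.52 ± 0.77. Early Act. CD4, at 22.5 ± 18.3 CPM, differed from CD4+ Naive T by 0.91 ± 0.46 (adjusted p = 0.158, edgeR). Cish was lower in Tfh than in Th17 (7.69-fold, log2 -2.94 ± 0.73 SE, adjusted p = 0.00638, edgeR), a contrast in which 5.89% of genes were called. That call was lost without mouse 7, which has the highest Th17 value, at a log2 difference of -2.49 (adjusted p = 0.111), and with a minimum of 20 cells, at -2.19 (adjusted p = 0.284, edgeR).

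Cish was lower in CD8+ Naive T and B than in CD4+ Naive T. CD8+ Naive T had 2.04, 6.14 and 10.3 CPM in the lowest, median and highest mouse, lower than CD4+ Naive T in 7 of 7 mice (log2 -1.15 ± 0.33 SE, adjusted p = 0.0095, edgeR). Without mouse 7 the difference was -0.98 and no longer passed (adjusted p = 0.0832, edgeR). B had 0, 1.66 and 4.44 CPM, 5.88-fold below CD4+ Naive T (log2 -2.56 ± 0.42 SE, adjusted p = 1.21e-07, edgeR). The small classes rested on few UMIs. In gdT the level was 90.9, 0, 19.6 and 0 CPM in mice 1, 4, 7 and 97, and in NK it was 0 and 54.7 CPM in mice 1 and 97. These span the naive range, and their differences from CD4+ Naive T, 0.20 ± 0.85 and 0.10 ± 1.17, did not pass (adjusted p = 0.951 and 0.992, edgeR). In single cells, a Cish UMI was seen in 102 of 328 CD4+ Treg cells (31.1%, exact 95% interval 26.1 to 36.4) at a median of 2523 UMIs a cell. In B cells, at a median of 2261 UMIs, it was seen in 10 of 2267 (0.441%, interval 0.212 to 0.81). How much of that share is background was not measured. In CD4+ Naive T, at a median of 2903 UMIs, the share was 3.58%. After every cell was thinned to 1500 UMIs the shares were 19% of CD4+ Treg, 1.85% of CD4+ Naive T and 0.242% of B, with 38, 80 and 197 shallower cells left out. The order of the 3 types held at equal depth, and these intervals cover counting error only.

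**Figure D1:**
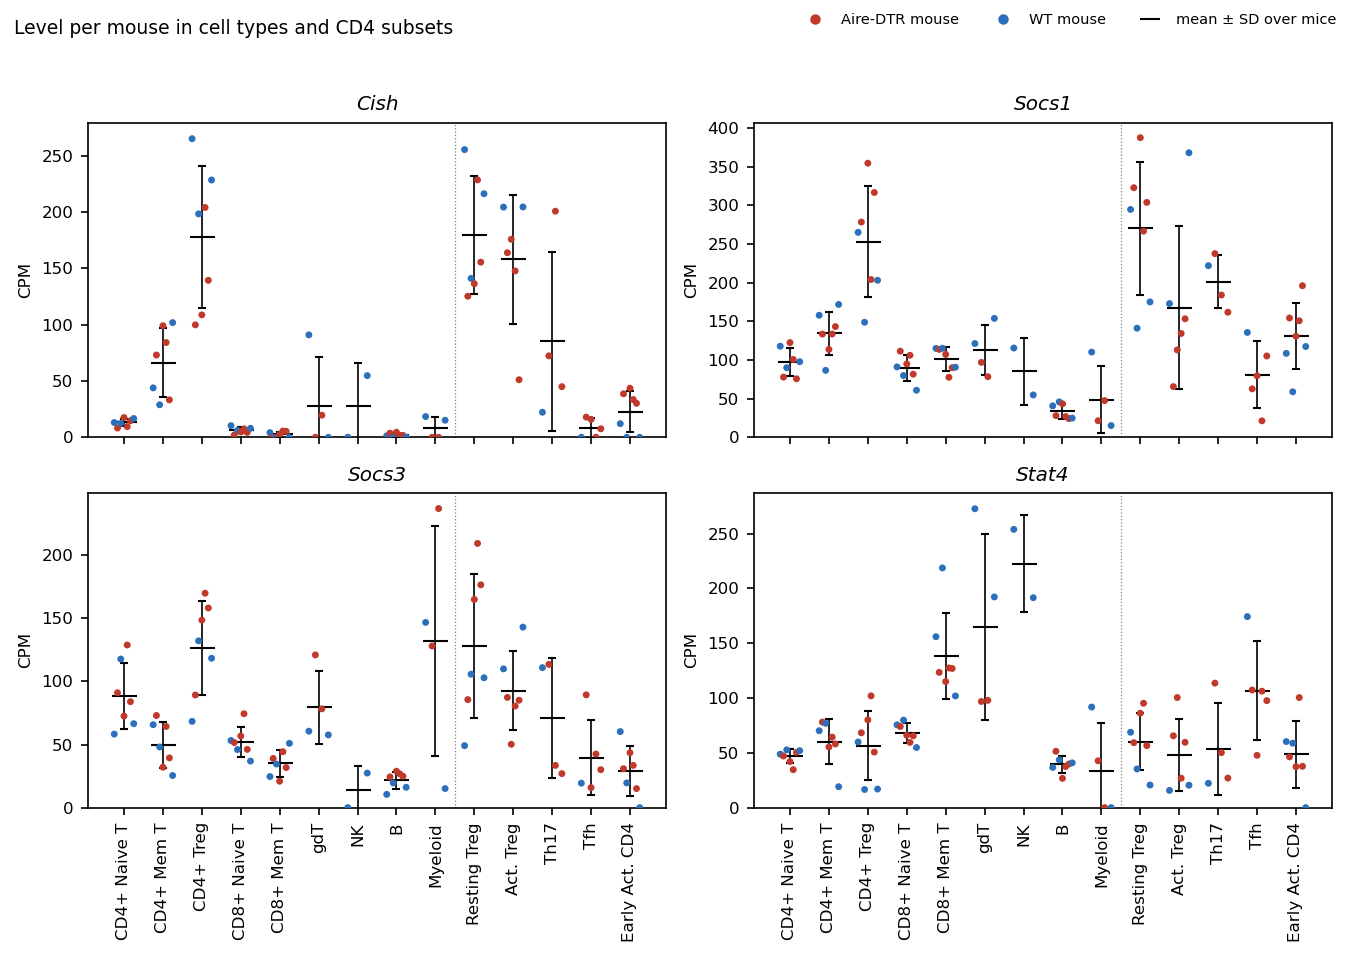
Level of Cish, Socs1, Socs3 and Stat4 in CPM (vertical axis, linear) for each cell type, left of the dotted line, and each CD4 subset, right of it. Points are mice with at least 10 cells of the class, red for Aire-DTR and blue for WT, and bars are the mean ± SD over mice. The CD4+ Treg points for Cish lie between 99.7 and 265, all above the CD4+ Naive T points at 8.18 to 17.5.

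Socs1, which blocks the kinases directly, was higher in CD4+ Treg than in CD4+ Naive T, as Cish was. CD4+ Naive T had 75.6, 97.7 and 122 CPM in the lowest, median and highest mouse (97.4 ± 18.1, n = 7), and CD4+ Treg had 149, 265 and 354 (253 ± 71.7, n = 7). All 7 mice were higher in CD4+ Treg and the ranges did not overlap (2.53-fold, log2 1.34 ± 0.14 SE, adjusted p = 6.87e-13, edgeR). A Socs1 UMI was found in 43.3% of CD4+ Treg, 20.3% of CD4+ Naive T and 6% of B cells, or in 29.3%, 11% and 3.62% at 1500 UMIs a cell. B had 24, 27.9 and 45.7 CPM, below every naive mouse and 3.01-fold lower (log2 -1.59 ± 0.14 SE, adjusted p = 3.9e-18, edgeR).

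The 2 regulatory subsets differed in Socs1. Resting Treg had 141, 295 and 387 CPM in the lowest, median and highest mouse (270 ± 85.6, n = 7), and Act. Treg had 65.5, 144 and 368 (168 ± 105, n = 6). The ranges overlapped, chiefly through mouse 97, whose 368 CPM in Act. Treg rested on 18 UMIs in 13 cells. Socs1 was higher in Resting Treg than in CD4+ Naive T (log2 1.50 ± 0.17 SE, adjusted p = 1.22e-09, edgeR), a contrast with 2 of 6 members tested called and 16.1% of all genes. The Act. Treg difference from CD4+ Naive T was 0.40 and did not pass (adjusted p = 0.217, edgeR). Set against each other, Act. Treg were 2.15-fold lower than Resting Treg (log2 -1.10 ± 0.24 SE, adjusted p = 0.000342, edgeR), where 2 of 6 members fell and 0 rose, beside 18.6% of genes called (9.86% lower and 8.75% higher). Cd74, a gene on the list of B cell markers, was higher in the same contrast, at 521 CPM in Act. Treg and 90.4 in Resting Treg. Cd79a, from that list, was at 28.2 CPM in Act. Treg, 9.44 in Resting Treg and 4711 in B. The part of such transcripts in the Socs1 difference was not tested. Th17 had 222, 237, 184 and 162 CPM in mice 1, 4, 7 and 36, all above the highest naive mouse (log2 0.81 ± 0.27 SE, adjusted p = 0.0244, edgeR). In this contrast 2 of 6 members tested were called, beside 19.3% of genes. The Th17 call of Socs1 was lost without mouse 1 (adjusted p = 0.0623), without mouse 36 (adjusted p = 0.059) and without mouse 4 (log2 0.57, adjusted p = 0.257, edgeR). It was also lost without the low-count filter (log2 0.56, adjusted p = 0.238, edgeR). Tfh had 135, 62.6, 79.4, 21.2 and 105 CPM in mice 1, 4, 7, 8 and 36, and were lower than Th17 (log2 -1.22 ± 0.37 SE, adjusted p = 0.0336, edgeR), a call lost without mouse 1, 4, 7 or 8 (adjusted p = 0.0522 to 0.25) and with a minimum of 20 cells (adjusted p = 0.139).

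Socs3, which binds cytokine receptors such as the gp130 chain, was lower in CD4+ Mem T than in CD4+ Naive T, where Cish was higher. CD4+ Naive T had 58.3, 83.9 and 129 CPM in the lowest, median and highest mouse (88.4 ± 26.3, n = 7), and CD4+ Mem T had 25.4, 48 and 73 (49.7 ± 18.4, n = 7). The level was lower in CD4+ Mem T in 6 of 7 mice (log2 -0.97 ± 0.17 SE, adjusted p = 4.55e-06, edgeR). Early Act. CD4 had 0, 30.8 and 60.2 CPM (log2 -1.52 ± 0.33 SE, adjusted p = 0.000446, edgeR), the 1 member of 6 called there, where 24% of genes were called. In the same cells the activation genes Nr4a1 (log2 6.07 ± 0.39 SE) and Egr1 (log2 4.13 ± 0.27 SE) were raised, and so were both CD8 lineage markers. The part of those CD8 transcripts in the result was not tested. Tfh had 19.4, 89.4, 15.9, 42.5 and 30 CPM in mice 1, 4, 7, 8 and 36 (log2 -1.13 ± 0.38 SE, adjusted p = 0.0279, edgeR), where 2 of 6 members and 19% of genes were called. The Tfh call was lost without mouse 7, 8 or 36 (adjusted p = 0.0847, 0.0827 and 0.157, edgeR). It was also lost with a minimum of 20 cells (0.349), without mixed-lineage cells (0.0505), with repeated cells kept (0.0716) and by DESeq2 (0.0503), each value an adjusted p.

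Socs3 in CD4+ Treg was not below the naive level. It was at 68.4, 132 and 170 CPM in the lowest, median and highest mouse (126 ± 37.1, n = 7), a difference from CD4+ Naive T of 0.43 ± 0.18 on the log2 scale that did not pass (adjusted p = 0.139, edgeR). CD8+ Naive T had 36.9, 51.6 and 74.4 CPM, lower than CD4+ Naive T in 7 of 7 mice (log2 -0.60 ± 0.13 SE, adjusted p = 0.000181, edgeR). B had 10.5, 24.3 and 28.9 CPM, 3.8-fold lower with no overlap (log2 -1.93 ± 0.15 SE, adjusted p = 2.04e-20, edgeR). Myeloid cells spread from 15.1 to 237 CPM over 4 mice.

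Stat4, which carries interleukin-12 signals and is known from T helper 1, NK and effector CD8 cells, rose from naive CD4 to naive CD8 to memory CD8 cells. In the lowest, median and highest mouse, CD4+ Naive T had 34.6, 48.7 and 52.7 CPM (46.8 ± 6.46), CD8+ Naive T had 54.8, 66 and 79.8 (67.9 ± 9.01) and CD8+ Mem T had 102, 127 and 219 (138 ± 39), with n = 7 in each. The 3 ranges did not overlap. CD8+ Naive T exceeded CD4+ Naive T by 0.60 ± 0.13 SE on the log2 scale (adjusted p = 0.000319, edgeR), in a contrast with 5 of 10 members called and 12% of genes. CD8+ Mem T exceeded CD8+ Naive T by 0.99 ± 0.14 SE (1.99-fold, adjusted p = 1.62e-08, edgeR), with 2 of 10 members and 6.91% of genes called. A Stat4 UMI was seen in 44.4% of CD8+ Mem T and 19.9% of CD8+ Naive T at medians of 5102 and 3446.5 UMIs, and in 18.2% and 9.32% after thinning. B cells, at 9.26% and 6.28% thinned, were near CD4+ Naive T at 12% and 6.78%. How much of such low Stat4 shares is background was not measured.

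The highest Stat4 levels were in the smallest classes. NK had 254 and 191 CPM in mice 1 and 97, and gdT had 273, 96.8, 97.8 and 192 CPM in mice 1, 4, 7 and 97, all above every CD4+ Naive T mouse. The NK difference was 1.84 ± 0.44 SE on the log2 scale (adjusted p = 0.00202, edgeR), 1 of 10 members called beside 6.01% of genes. The gdT difference was 1.39 ± 0.34 SE (adjusted p = 0.00356, edgeR), 1 of 10 beside 5.48%, and was lost without mouse 1 (1.26, adjusted p = 0.0649, edgeR). Over all genes the median difference was -0.41 in NK and -0.32 in gdT, so both excesses are larger relative to it. Tfh had 174, 107, 47.7, 106 and 97.6 CPM in mice 1, 4, 7, 8 and 36 (log2 0.90 ± 0.33 SE, adjusted p = 0.0436, edgeR), a call lost without mouse 1 or 8 (adjusted p = 0.2 and 0.0838, edgeR). It was also lost with a minimum of 20 cells (0.22), without the low-count filter (0.247), without mixed-lineage cells (0.0537) and with repeated cells kept (0.0847), each value an adjusted p.

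Stat5a and Stat5b, near-identical proteins downstream of the common gamma chain, share much of their coding sequence, so the authors' counting may have split their reads unevenly. Stat5a (chr 11, 100859351 to 100885169, plus strand, GRCm38) also overlaps the end of Stat3 (100885098 to 100939540, minus strand). Strand use in counting is not given in the sources used here, which leaves both counts uncertain. Stat5a was higher in CD4+ Mem T, at 19.1, 39.4 and 55.3 CPM in the lowest, median and highest mouse, than in CD4+ Naive T, at 12.3, 21.4 and 27.9, in 7 of 7 mice (log2 0.79 ± 0.24 SE, adjusted p = 0.0127, edgeR). Without mouse 4 (adjusted p = 0.113) or mouse 7 (adjusted p = 0.0672, edgeR) that call was lost. Stat5b moved otherwise. Its naive CD4 level of 48.7, 69.3 and 89.4 CPM was above that of CD8+ Naive T (36, 42 and 61.4; log2 -0.61 ± 0.15 SE, adjusted p = 0.0015, edgeR) and of B (18.9, 28.6 and 41.1; log2 -1.12 ± 0.16 SE, adjusted p = 3.57e-09, edgeR). In CD4+ Treg the differences were 0.01 ± 0.39 for Stat5a and 0.07 ± 0.23 for Stat5b, beside the 10.8-fold excess of Cish.

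Stat3, the transducer of gp130 cytokines, varied little. CD4+ Naive T had 118, 124 and 152 CPM in the lowest, median and highest mouse. CD8+ Naive T had 84.7, 98.7 and 114 (log2 -0.34 ± 0.09 SE, adjusted p = 0.00588, edgeR) and B had 86.2, 96.4 and 115 (log2 -0.43 ± 0.10 SE, adjusted p = 9.41e-05, edgeR), both lower with no overlap. The CD8+ Naive T call was lost when the repeated cells were kept (adjusted p = 0.0562, edgeR). Stat6, the transducer of interleukin-4, passed the test in 0 of 8 cell type contrasts. Its differences included 0.20 in B, at 48.6 ± 3.24 against 43.3 ± 7.6 CPM, and 0.75 in Myeloid (adjusted p = 0.176, edgeR). The Myeloid difference passed with DESeq2's size factors (1.11, adjusted p = 0.04), with its Wald test (1.12, adjusted p = 0.02) and with repeated cells kept (0.88, adjusted p = 0.0488, edgeR).

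Jak1, the kinase shared by most cytokine receptor families, was detected in 60% of all cells, the widest of the 10 members. CD4+ Naive T had 357, 378 and 443 CPM in the lowest, median and highest mouse (386 ± 27.7, n = 7). B had 240, 277 and 297 CPM, lower in 7 of 7 mice with no overlap (log2 -0.52 ± 0.07 SE, adjusted p = 3.9e-10, edgeR). With Stat3, Stat5b and the 3 SOCS genes this made 6 of 10 members lower in B and 0 higher, where 42.9% of genes were called (20.7% lower and 22.1% higher). CD4+ Mem T had 307, 341 and 388 CPM (log2 -0.35 ± 0.08 SE, adjusted p = 0.000446, edgeR). CD8+ Mem T, at 386, 431 and 468 CPM, lay above CD8+ Naive T, at 339, 357 and 385, in 7 of 7 mice without overlap (log2 0.31 ± 0.08 SE, adjusted p = 0.00401, edgeR).

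Among regulatory cells Jak1 was lower under the activated label. Act. Treg had 204, 273 and 351 CPM in the lowest, median and highest of 6 mice, below CD4+ Naive T in 6 of 6 (log2 -0.66 ± 0.15 SE, adjusted p = 0.000428, edgeR), with 2 of 6 members and 32% of genes called. They were also below Resting Treg (log2 -0.58 ± 0.18 SE, adjusted p = 0.0134, edgeR), but not without mouse 1 (adjusted p = 0.0892) or mouse 97 (adjusted p = 0.0538), or with a minimum of 20 cells (adjusted p = 0.0593, edgeR). Both genes tested from the list of B cell markers, Cd74 among them, were also higher in Act. Treg in both contrasts, and their part in the result was not tested. In Myeloid cells Jak1 was at 385, 256, 237 and 151 CPM in mice 1, 4, 36 and 97 (log2 -0.80 ± 0.19 SE, adjusted p = 0.000767, edgeR), 1 of 10 members beside 19.3% of genes, where the median of all genes was -0.30. That call depended on scaling and on 1 mouse: the difference was -0.44 with DESeq2's size factors (adjusted p = 0.137) and -0.53 without mouse 97 (adjusted p = 0.0789, edgeR). All 5 erythroid, 7 of 8 B cell and both CD8 lineage markers were raised in the same cells, and their part in the result was not tested.

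NK had the highest Jak1 mean (712 ± 192 CPM, n = 2), followed by gdT (586 ± 144, n = 4), with overlapping ranges. Their differences from CD4+ Naive T, 0.41 and 0.20, did not pass by edgeR (adjusted p = 0.343 and 0.612), but this turned on the scaling and the test. In NK the difference was 0.75 and passed with DESeq2's size factors (adjusted p = 0.026) and its Wald test (adjusted p = 0.00659), and 0.67 with repeated cells kept (adjusted p = 0.000344, edgeR). In gdT it was 0.53 and passed by the Wald test of DESeq2 (adjusted p = 0.0171). Jak3, the kinase of the common gamma chain, passed in 0 of 8 cell type contrasts, with 50.3 ± 15 CPM in CD4+ Mem T and 34.1 ± 9.78 in CD4+ Naive T (log2 0.39 ± 0.20 SE). Without mouse 1, whose naive level was the highest, that difference was 0.63 and passed (adjusted p = 0.0214), as did the one in B without mouse 4 (-0.57, adjusted p = 0.0128, edgeR). In all, 22 of 80 member tests between cell types and 13 of 42 between CD4 subsets passed, and 31 and 16 had an unadjusted p under 0.05. Of all genes, 5.48% (gdT) to 42.9% (B) were called in the contrasts of cell types. In those of subsets the share ran from 5.89% (Tfh against Th17) to 32% (Act. Treg against CD4+ Naive T). In the subsets Jak3, Stat5a, Stat5b and Stat6 were below the filter on low counts and were not tested.

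**Figure D2:**
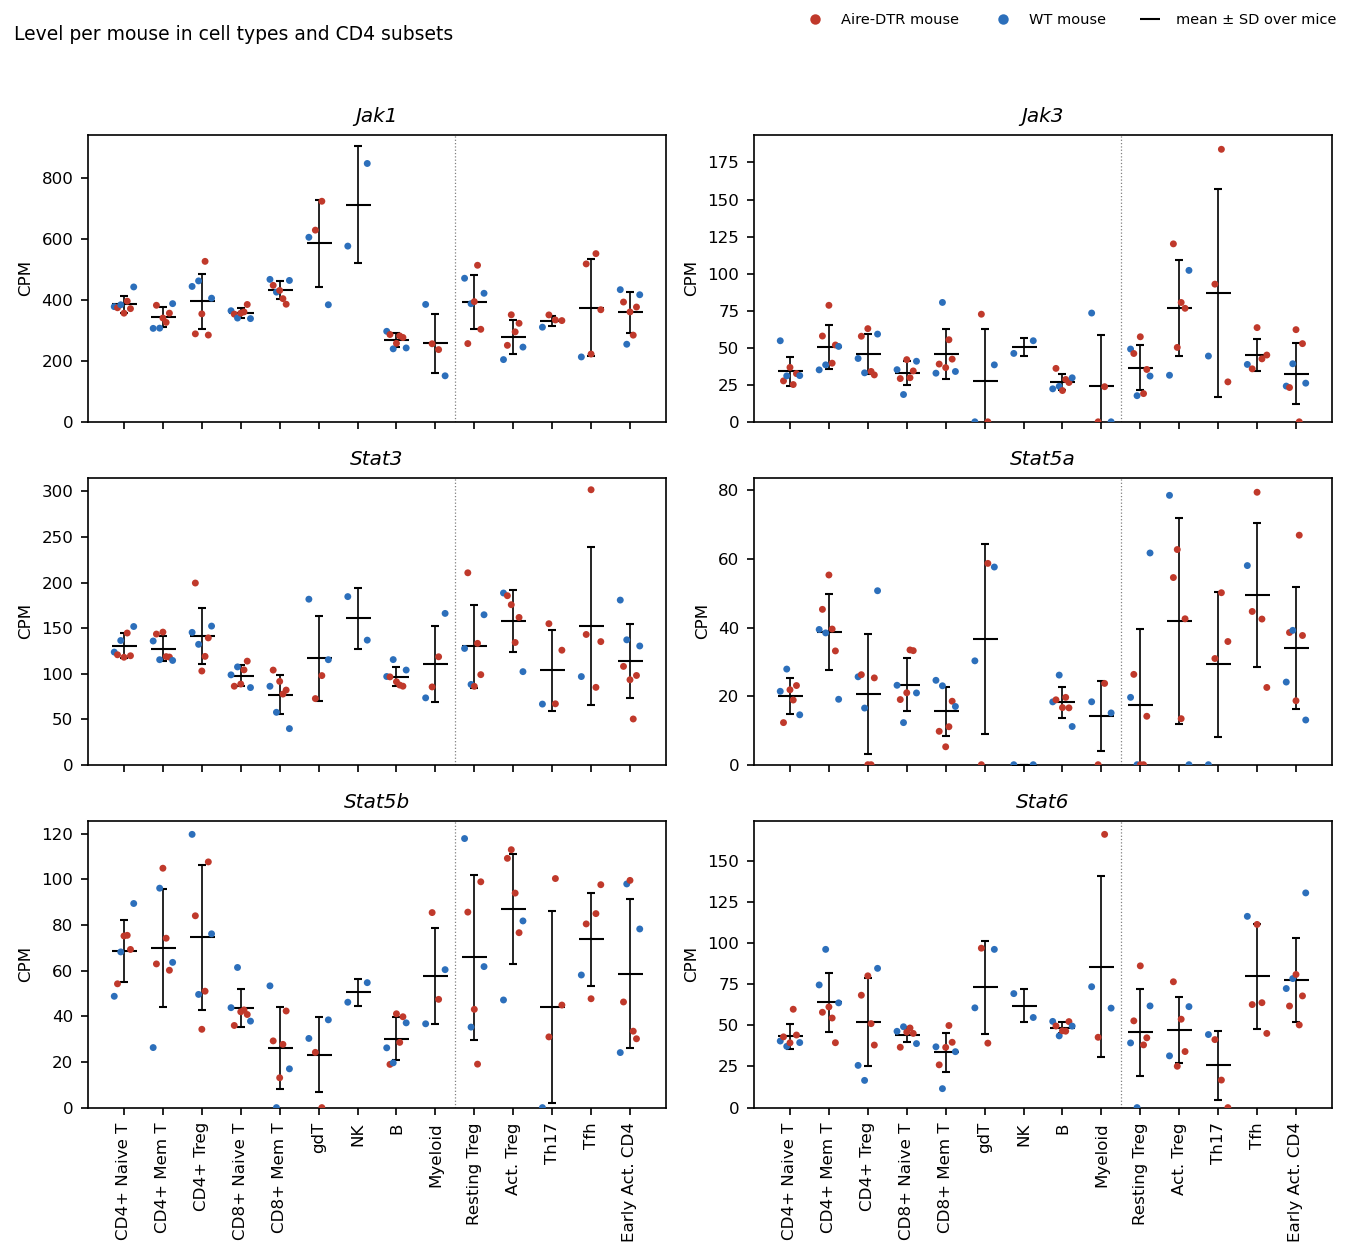
Level of Jak1, Jak3, Stat3, Stat5a, Stat5b and Stat6 in CPM (vertical axes, linear) in cell types, left of the dotted line, and CD4 subsets, right of it. Points are mice with at least 10 cells, red for Aire-DTR and blue for WT, and bars are the mean ± SD. The CD8+ Mem T points for Jak1 lie at 386 to 468, above the CD8+ Naive T points at 339 to 385.

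**Figure D3:**
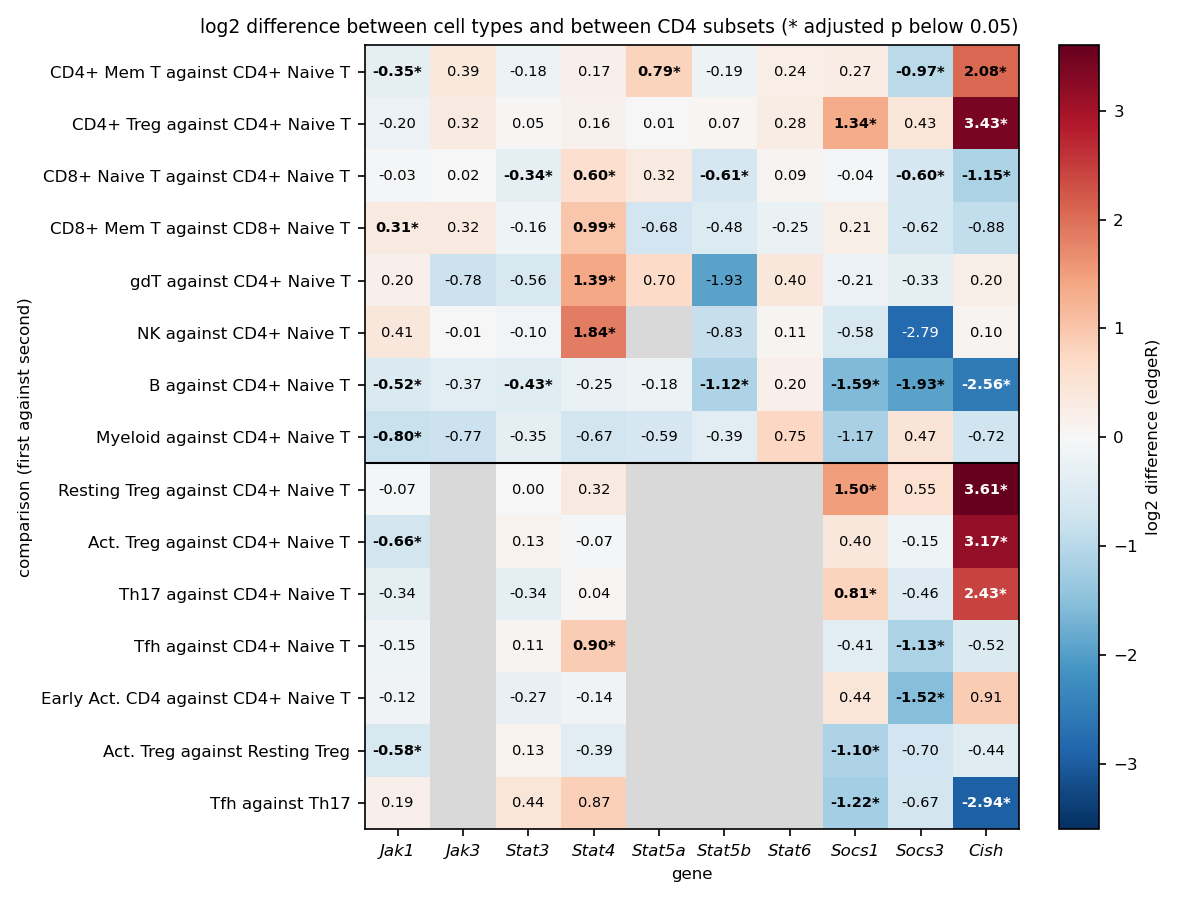
log2 difference (edgeR) of each member, in columns, for each pair of classes, in rows, with cell types above the black line and CD4 subsets below it. Red is higher in the first class, blue is lower, a star marks an adjusted p below 0.05 and grey was not fitted or has no UMI in the class. Cish spans the widest range, from -2.94 for Tfh against Th17 to 3.61 for Resting Treg against CD4+ Naive T.

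Other genes of the pathway were taken from lists of family members, receptor chains, targets and inhibitors. In CD4+ Treg, 2 of 6 other family genes tested rose, Socs2 (log2 5.59 ± 0.46 SE), a further SOCS gene, and Jak2 (1.12 ± 0.34), and none fell, beside 9.44% of all genes called. The Jak2 call was lost without mouse 4, 6 or 97 (adjusted p = 0.184, 0.0573 and 0.0847) and with a minimum of 50 cells (0.81, adjusted p = 0.399, edgeR). Of 14 receptor chains tested, 4 rose and 1 fell. The largest were Il2ra (5.98 ± 0.22) and Il2rb (4.36 ± 0.19), the alpha and beta chains of the interleukin-2 receptor, while Il7r, the interleukin-7 receptor alpha chain, fell (-1.06 ± 0.15). Il2ra is also a marker by which Treg are named. Of 9 STAT5 target genes tested, 3 rose and 1 fell, among them the kinase gene Pim1 (1.90 ± 0.13) and the survival gene Bcl2 (0.64 ± 0.11), with Ccnd3 lower (-0.45 ± 0.11, lost without mouse 7 at an adjusted p of 0.0503). The list's median difference was 0.52 against -0.05 over all genes. Of 10 inhibitors of other kinds, 1 rose (Usp18, 0.91 ± 0.26) and 1 fell (Ptpn6, -0.49 ± 0.16). The Usp18 call was lost without mouse as a block (adjusted p = 0.056), without mouse 4 or 7 (0.197 and 0.0894) and with repeated cells kept (0.0546, edgeR). The Ptpn6 call was lost in 10 of 16 alternatives, among them both with DESeq2, each without mouse 1, 4, 7, 36 or 97, and that without mixed-lineage cells (adjusted p = 0.0562 to 0.189).

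The other CD4 classes carried parts of this pattern. Socs2 was higher in CD4+ Mem T (4.15 ± 0.50), Resting Treg (5.74 ± 0.53), Act. Treg (5.24 ± 0.62) and Th17 (3.82 ± 0.97), and was not called in Tfh or Early Act. CD4. Il2rb was higher in Th17 (3.12 ± 0.36) and Tfh (3.20 ± 0.32), but Il2ra was 4.19 ± 1.07 lower in Tfh than in Th17 on the log2 scale, the pair that also differed in Cish. Tfh held 2 Il2ra UMIs, and without mouse 4 the difference was -2.61 and did not pass (adjusted p = 0.377, edgeR). Between Act. Treg and Resting Treg, where Socs1 was lower, Bcl2 (-2.16 ± 0.22) and Il2ra (-0.69 ± 0.20) were lower too. There 2 of 5 tested STAT3 targets, Maf (2.93 ± 0.29) and Batf (2.83 ± 0.34), were higher, beside 8.75% of all genes called higher and 9.86% lower. The Il2ra call was lost without mouse 8 (-0.48, adjusted p = 0.11), with a minimum of 20 cells (-0.39, adjusted p = 0.195) and by DESeq2 (adjusted p = 0.0994). In Th17 the gp130 gene Il6st fell by 2.19 ± 0.40 on the log2 scale.

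Outside the CD4 cells the lists differed by class. In B, 6 of 9 STAT5 targets were lower and 0 higher, beside 20.7% of all genes called lower and 22.1% higher. The list's median was -0.75 against 0.02 over all genes, and Ccnd2 (-2.15 ± 0.09) led the lower genes. Il7r (-4.12 ± 0.14), Il6ra (-3.10 ± 0.14) and Il6st (-2.80 ± 0.17) were lower, and the STAT6-linked B cell genes Fcer2a (8.89 ± 0.18) and Il4i1 (7.87 ± 0.27) were higher. In CD8+ Mem T against CD8+ Naive T, Stat4 rose and 6.91% of all genes were called. Of 7 tested genes linked to STAT4 and STAT6, 3 were higher and 0 lower (median 0.52, against -0.03 over all genes). These were Tbx21 (4.05 ± 0.39), the T-bet gene, and the interleukin-18 receptor chains Il18rap (3.13 ± 0.41) and Il18r1 (1.28 ± 0.25). The same 3 genes were higher in NK, at 6.62 ± 0.95, 6.16 ± 0.77 and 3.14 ± 0.63, and the first 2 in gdT, though the medians of the list were -0.78 and -1.19 there. Of all genes 6.01% were called in NK and 5.48% in gdT. Without mouse 1, Il18rap in gdT fell from 4.07 to 2.55 on the log2 scale and did not pass (adjusted p = 0.449, edgeR).

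The genes most like each member over the 9 cell types were ranked by Pearson's r of log2(CPM + 1) among 4344 genes reaching 50 CPM in a type. The 9 points share mice, libraries and depth, so r is a description. For Cish they were Ncoa7 (r = 0.95), Dync1li1 (0.93) and Pnrc1 (0.93), for Socs1 Rtl8b (0.96), Usp3 (0.94) and Chd3 (0.93), and for Socs3 Ndufb3 (0.93), Bnip3l (0.90) and Pigx (0.90). For Stat4 they were Peak1 (0.97), Xrn2 (0.96) and Gm4759 (0.95), and Gm4759 was also the gene most like Jak1 (0.99), ahead of Btg3 and Esyt1. Jak3 was most like Gata3 (0.93), Cd2 and Rnaset2a, and Stat3 most like Crtc3 (0.93), Pja1 and Ptpra. Stat5a was most like Mapre1 (0.94), U2af1 and Phf23, Stat5b most like Ski (0.95), Cd4 (0.94) and Arid4a, and Stat6 most like Midn (0.97), Plin2 and Map1lc3b.

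The udLN was compared with the brLN of the same mouse, which asks whether the pathway differs in the node that drains the pregnant uterus. In CD4+ Naive T, Socs3 was higher in the udLN. Its level in brLN and then udLN was 37.8 and 142 CPM in mouse 4, 66.6 and 96.3 in mouse 7, and 106 and 154 in mouse 8. It was 55.1 and 160 CPM in mouse 36, 37.3 and 101 in mouse 1, and 122 and 109 in mouse 6. The udLN was higher in 5 of 6 mice, that is in all 3 mice of pool LN, in the pool 2 mouse and in 1 of 2 pool 1 mice, and the ranges of the nodes overlapped. The mean was 70.8 ± 35.5 CPM in brLN and 127 ± 28.3 in udLN, a 2.09-fold difference with mouse as a block (log2 1.06 ± 0.19 SE, adjusted p = 0.00227, edgeR). Socs3 was the 1 member called of 7 tested, where 0.119% of 3369 genes were called. Neither DESeq2's Wald test (log2 1.01, adjusted p = 0.144) nor edgeR without the mouse block (1.07, adjusted p = 0.0686) called it. Leaving out mouse 4 (0.87, adjusted p = 0.0524) or mouse 36 (0.94, adjusted p = 0.0909, edgeR) ended the call as well.

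Other values moved with it. The summed level of 10 immediate early genes in the same cells was higher in udLN in all 6 mice, at 728 to 1130 CPM in brLN and 856 to 1402 in udLN. None of the 5 tested passed, and their median difference was 0.39. Summed erythroid markers were at 0 to 16 CPM in pool LN mice and 679 to 1335 in those of pools 1 and 2. The part of either in the Socs3 difference was not tested.

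In the other types 0 members passed. CD8+ Naive T had 0 of 8 called beside 0.124% of genes, and 2 with unadjusted p below 0.05, namely Socs3 (0.42 ± 0.18) and Jak3 (0.53 ± 0.22). Both had a higher udLN level in 5 of 6 mice. CD4+ Mem T had 0 of 4 called beside 0.66%. Its Stat4 level in brLN and then udLN was 47.5 and 89.5 CPM in mouse 1, 62.9 and 94.4 in mouse 4, 42 and 98.1 in mouse 7, 35 and 85.8 in mouse 8, and 40.6 and 102 in mouse 36. All 5 mice were higher in udLN and the ranges did not overlap, but the difference of 0.99 ± 0.29 missed the threshold over all genes (adjusted p = 0.161, edgeR). B had 0 of 4 called beside 0.0479%, and 0 at an unadjusted p under 0.05. There Socs3 was below the filter, with 15.3 ± 10.9 CPM in brLN and 35.1 ± 16.8 in udLN, higher in 5 of 7 mice. DESeq2 called 0 members in each of these types. CD4+ Treg and CD8+ Mem T had fewer than 3 mice with 20 cells in both nodes and were not fitted.

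**Figure D4:**
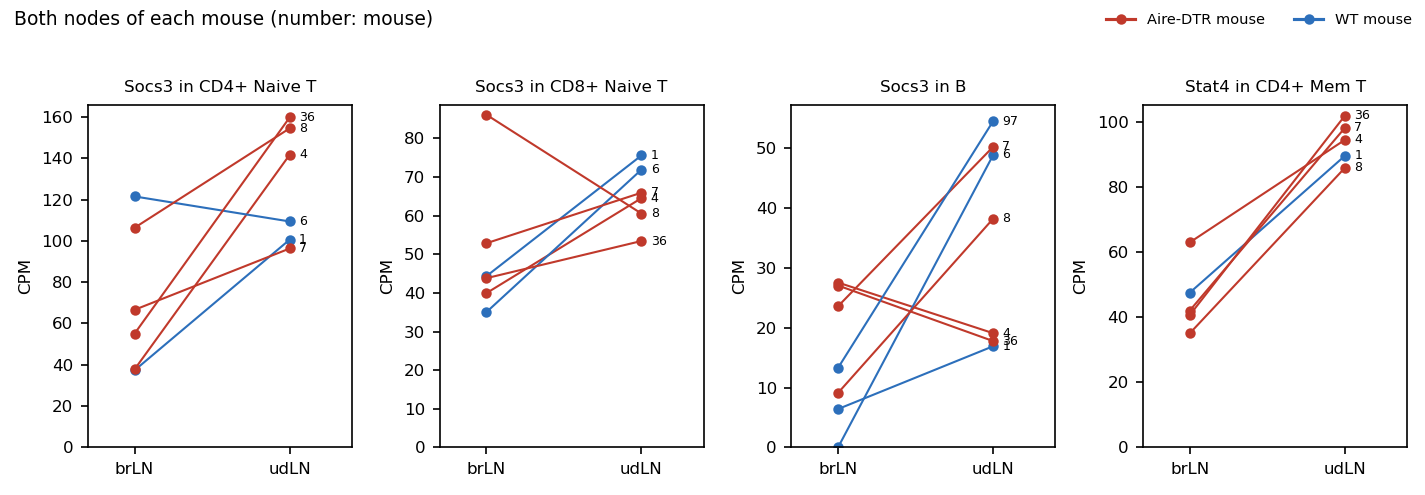
Level in CPM (vertical axes, linear) of Socs3 in CD4+ Naive T, CD8+ Naive T and B and of Stat4 in CD4+ Mem T, in the brachial (brLN) and uterine-draining (udLN) node. Each line joins both nodes of 1 mouse, with the mouse number at the right, red for Aire-DTR and blue for WT. Socs3 in CD4+ Naive T is higher in udLN in 5 of 6 mice, and Stat4 in CD4+ Mem T in 5 of 5.

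Aire-DTR and WT mice were compared within each type and node and within 3 CD4 subsets, which asks whether loss of cells that express Aire alters the pathway. No member passed in any of 12 comparisons. Of 80 member tests 0 were called, 6 had an unadjusted p under 0.05, and DESeq2 called 0. Among all genes 0.0184% were called in CD4+ Naive T of brLN, 0.0828% in its udLN, 0.0297% in CD8+ Naive T of brLN, 0.0756% in its udLN and 0.115% in CD8+ Mem T of brLN. In CD4+ Mem T of brLN 0.0924% were called, in CD4+ Treg of brLN 0.411%, in B of brLN 0.058% and in B of udLN 0%. In Resting Treg 0.0667% were called, in Act. Treg 0.135% and in Early Act. CD4 0.0803%. With 4 or 3 mice against 3 or 2, the SE of a member's log2 difference ran from 0.0992 to 0.748, so small differences were not detectable.

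The 6 were all SOCS family genes. In B of brLN, Socs3 was at 27.5, 23.6, 9.1 and 27 CPM in Aire-DTR mice 4, 7, 8 and 36 and at 6.41, 0 and 13.3 in WT mice 1, 6 and 97. The ranges overlapped, and the difference was 1.44 ± 0.44 SE (adjusted p = 0.866, edgeR). In B of udLN, Socs1 was at 23.8, 27.9, 44.1 and 14.2 CPM in the same Aire-DTR mice and 64.2, 92.2 and 18.2 in the WT mice (-1.14 ± 0.35, adjusted p = 0.999, edgeR). Cish in CD4+ Treg of brLN was at 80, 123 and 166 CPM in Aire-DTR mice 4, 7 and 36 and at 287 and 215 in WT mice 1 and 97, which do not overlap (-0.92 ± 0.37, adjusted p = 0.822, edgeR). Aire-DTR mouse 8, with too few cells for the test, had 285 CPM and WT mouse 6 had 149, inside the other group's range. Socs1 differed by -1.11 ± 0.45 in Act. Treg and by 0.55 ± 0.24 in Resting Treg, and Socs3 by 1.01 ± 0.36 in Resting Treg.

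Signs were mixed for most members. Socs1 and Jak1 each lay above 0 in 6 comparisons and below 0 in 6, and Socs3 above in 6 of 9. Cish was below 0 in all 4 comparisons where it was tested, but these share cells and mice. The genotype difference was also compared between nodes, by an interaction term in CD4+ Naive T, CD8+ Naive T and B. Of 25 member tests 0 were called by edgeR or DESeq2 and 1 had an unadjusted p under 0.05, Socs3 in B (-2.08 ± 0.90). Of all genes, 0.0893%, 0.0387% and 0.0195% were called in these 3 types. On counts simulated with known changes in CD4+ Naive T, this interaction test recovered 27% of 2-fold and 63% of 4-fold changes. Tfh and Th17 lacked WT mice with enough cells and were not compared.

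**Figure D5:**
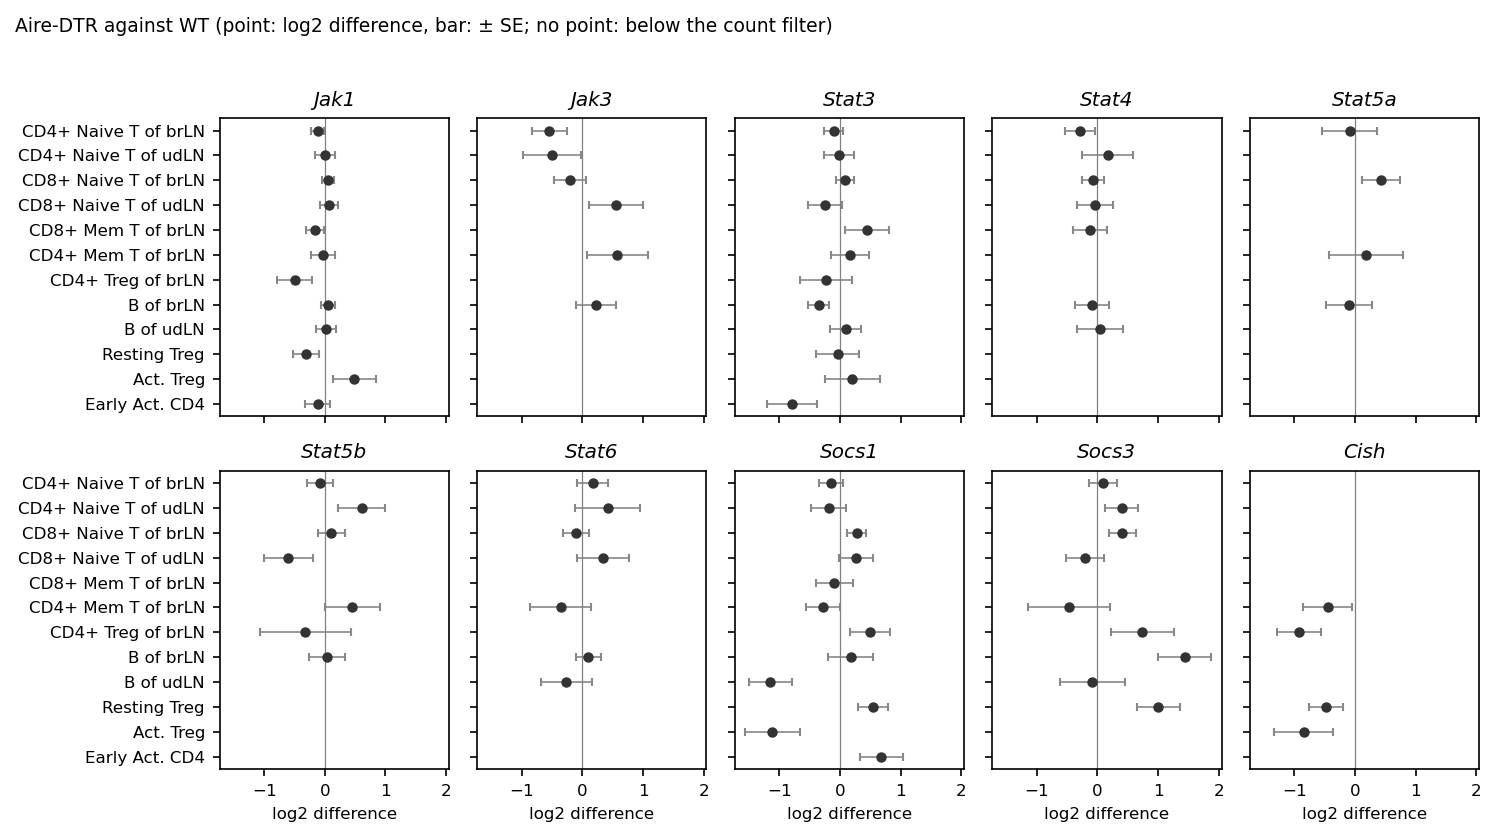
Difference between Aire-DTR and WT mice (horizontal axes, log2, edgeR) for each member, in 1 panel each, in 12 cell types, nodes and CD4 subsets. Points are the fitted difference and bars ± 1 SE, and a row without a point was below the count filter. The largest is Socs3 in B of brLN at 1.44, and no point has an adjusted p below 0.05.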

How the data were processed

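Droplet libraries (10x 3′ v3) of sorted node cells were analysed. The submitters' processing notes name Scanpy 1.7.0, Seurat, bustools 0.40.0, kallisto 0.46.1 and build GRCm38. Their roles, strand use, doublet removal and cell naming are steps not given in the sources used here. Per the labels the sort was CD45+ CD3+ and per the series design CD45+, while 2267 cells carry the label B. The authors' deposited values are raw counts of UMIs for each gene in each cell, with the authors' labels of mouse, node, genotype, type and subset. The deposited scaled tables, whose values are a score with no fixed range, were read for gene names only. No further doublet removal was made, and an alternative left out cells with markers of another lineage (6618 kept).

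Members and gene lists were chosen with earlier results of these data known. Counts were summed over both nodes per mouse and type, or per mouse and subset (at least 10 cells). For comparisons of nodes, and of genotypes within types, they were summed per mouse, node and type (at least 20 cells). After filterByExpr and TMM scaling, the quasi-likelihood test of edgeR was run (edgeR 4.0.16, limma 3.58.1, R 4.3.3), with Benjamini-Hochberg adjusted p below 0.05 over all genes tested. Mouse was a block between types, subsets and nodes, since both nodes and all classes come from 1 animal, and pool was a term between genotypes. DESeq2 1.42.0 was an alternative. Levels, shares and figures used Python 3.11.15, numpy 2.4.6, pandas 2.3.3, scipy 1.17.1 and matplotlib 3.10.9. Shares have exact (Clopper-Pearson) 95% intervals.

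All members are named. Of other lists, up to 4 called genes per list and comparison qualify by smallest p, and T cell receptor and immunoglobulin segments are not named. On simulated counts with 100 changed genes per fold, 49% of 2-fold and 82% of 4-fold changes were recovered for CD4+ Treg against CD4+ Naive T (7955 genes), 92% and 100% for nodes in CD4+ Naive T (3369 genes), and 68% and 98% for genotypes in CD4+ Naive T of brLN (5447 genes). Labels name 7 mice, and genotype tests rest on 2 or 3 residual degrees of freedom.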

Additional observations from a re-analysis of the deposited data

Results flagged for a closer look

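In 130 groups of 4 to 10 mice (a member in a class), 9 had 1 mouse set apart by a gap that exceeded Dixon's 95% value, and chance flags about 1 in 20 groups. In Act. Treg, Cish of mouse 36 was the lowest at 51.1 CPM (6 UMIs in 36 cells, the next 148), and Socs1 of mouse 97 the highest at 368 CPM (18 UMIs in 13 cells, the next 173). In CD4+ Naive T, Jak3 of mouse 1 stood at 54.7 CPM (46 UMIs, the next 36.7) and Stat6 of mouse 8 at 59.7 (19 UMIs, the next 44.1). Stat3 of mouse 7 in Tfh stood at 302 CPM (19 UMIs in 19 cells, the next 143). Stat4 of mouse 97 in CD4+ Mem T was the lowest at 19.1 CPM (3 UMIs in 39 cells, the next 55.3). Stat5a of mouse 97 in Resting Treg stood at 61.7 CPM (6 UMIs, the next 26.3) and Stat5b of mouse 6 in CD8+ Naive T at 61.4 (20 UMIs in 76 cells, the next 43.8). Stat6 of mouse 97 in Early Act. CD4 stood at 130 CPM (10 UMIs in 21 cells, the next 80.8). Mouse 97 held 4 of the 9.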

How the results depend on the processing

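Of 36 member results past the threshold, 24 kept direction and call in every alternative run, and 39 of 554 alternative values lost the call. None reversed. Alternatives changed the scaling, the test, the low-count filter, the cell minimum, the UMI minimum (1000), mixed-lineage cells, the mouse block and each mouse in turn. Keeping the repeated cells was added after seeing the data. The numbers of members called that moved by over 1.5 times were as follows, with the cause not tested. With a minimum of 20 cells, Act. Treg against Resting Treg gave 1 in place of 2, Early Act. CD4 2 in place of 1, and Tfh against CD4+ Naive T and against Th17 0 in place of 2 each. With repeated cells kept, Myeloid gave 3, NK 2 and gdT 2 in place of 1, and Tfh against CD4+ Naive T 0. Without the low-count filter Myeloid gave 2, gdT 2 and Tfh 1. Tfh gave 1 with at least 1000 UMIs and 0 without mixed-lineage cells, where gdT gave 2. DESeq2's size factors gave 2 for NK, and its Wald test gave 2 for NK, 2 for gdT, 1 for Tfh and 0 for nodes in CD4+ Naive T. Without the replicate block (mouse), nodes in CD4+ Naive T gave 0 in place of 1. The call of Usp18 in CD4+ Treg was lost without the block as well (log2 0.92, adjusted p = 0.056, edgeR), and no call of another member changed. Leaving out 1 mouse gave 1 to 2 for Act. Treg against Resting Treg, 0 to 2 for Myeloid (0 without mouse 97), 0 to 2 for Tfh (0 without mouse 8 or 36), 0 to 2 for Tfh against Th17 (0 without mouse 7), 1 to 2 for Th17, 0 to 1 for gdT (0 without mouse 1) and 0 to 1 for nodes in CD4+ Naive T (0 without mouse 4 or 36). The classes with few cells (NK 54, gdT 73, Myeloid 73, Th17 105) limit depth.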
